A study of Mus musculus with 6 samples.

Results

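Lymphocytes pass the signal of an antigen receptor on through a short chain of kinases and adaptors, and 9 genes of that chain were read in whole hearts: the kinases *Lck*, *Zap70*, *Txk* and *Prkcq*, and the adaptors *Lat*, *Fyb*, *Skap1*, *Sh2d1a* and *Sh2d2a*. They were chosen by name, with earlier results of these data known. Every array probe annotated to one of them was taken, whatever its signal. They were 9 of the 27307 genes named on the array and had 25 of its 56605 different probes. Of these 25 probes, 8 passed the filter on dim signals and were tested, and they belonged to 6 of the 9 genes.

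The hearts came from male C57BL/6J *Clk4*-cKO mice. In these animals α-MHC-MerCreMer, a tamoxifen-inducible Cre driven by a cardiomyocyte promoter, removed floxed *Clk4* exons after tamoxifen, so both groups carried the deletion and no array came from a mouse with intact *Clk4*. The labels gave 2 groups: AAV NEXN-WT (n = 3), which served as the control, and AAV NEXN-S437E (n = 3), in which a glutamate that mimics phosphorylation replaces a serine of the Z-disc protein nexilin. The AAV9 vectors were given intravenously and carried nexilin and GFP behind a CMV promoter, which is not restricted to cardiomyocytes. The age of each mouse was not given in the labels. Total RNA of the myocardium was hybridised to 1 Agilent array per mouse with 1 dye, so every cell type of the tissue contributed.

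In a T cell, the Src-family kinase LCK phosphorylates the receptor tails and then ZAP-70, and ZAP-70 phosphorylates the membrane scaffold LAT, on which the next enzymes and adaptors assemble. ADAP, the product of *Fyb*, and its partner SKAP1 link this scaffold to integrin adhesion. PKC-theta, the product of *Prkcq*, leads on to NF-κB. NK cells use many of the same proteins behind their own receptors, and the normal heart holds few lymphocytes of either kind.

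Levels below are log2 signals relative to the 75th percentile of all probes on the same array, so a level of −1 is a signal at 50% of that percentile. A probe was well above background where the scanner software marked its spot so, and a probe was tested where all 3 arrays of at least 1 group were. The 75th percentile itself ran from 110 to 273 intensity units, and 41.9% to 47.8% of the spots of an array were well above background. The array of NEXN-WT replicate 1 stood apart: its mean absolute distance per probe to the other arrays was 0.38 to 0.56 on the log2 scale, against 0.19 to 0.33 among those. Values without it are given beside the results of the tested members and where leaving it out changed a call. Cardiomyocyte markers were well above background on every array (8 of 8 genes), as were 9 of 9 macrophage markers.

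Across the 9 genes, the transcripts of 3 were lower with NEXN-S437E at the thresholds the study used, a 2-fold change with an unadjusted p of 0.05: *Lck*, *Zap70* and *Skap1*. They accounted for 4 of the 8 tested probes, all lower. The background in the same direction was 1.78% of the 22998 tested probes. At a Benjamini-Hochberg adjusted p of 0.05 (limma, over all tested probes), 1 of the 8 was called, a probe of *Lck*, against a background of 0.13%. The probes of *Sh2d2a* and *Prkcq* gave differences near 0, *Fyb* lay between, and *Lat*, *Sh2d1a* and *Txk* had no probe that passed the filter. The median log2 fold change over the 8 tested probes was −1.31, and over all tested probes 0.09. Of the 8, however, 5 had passed the filter only through the NEXN-WT arrays, so that a difference was built into their passing, and neither the count nor the median stands for the 9 genes as a whole. The 3 probes that were well above background on all 6 arrays, of *Lck*, *Fyb* and *Prkcq*, are free of this: 1 of them was lower at the study's thresholds, against 1.14% of such probes, and 2 were lower without overlap between the groups, against 8.39%. Since the 9 genes were chosen with earlier results of these data known, none of these shares is a test of the set.

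**Figure D1:**
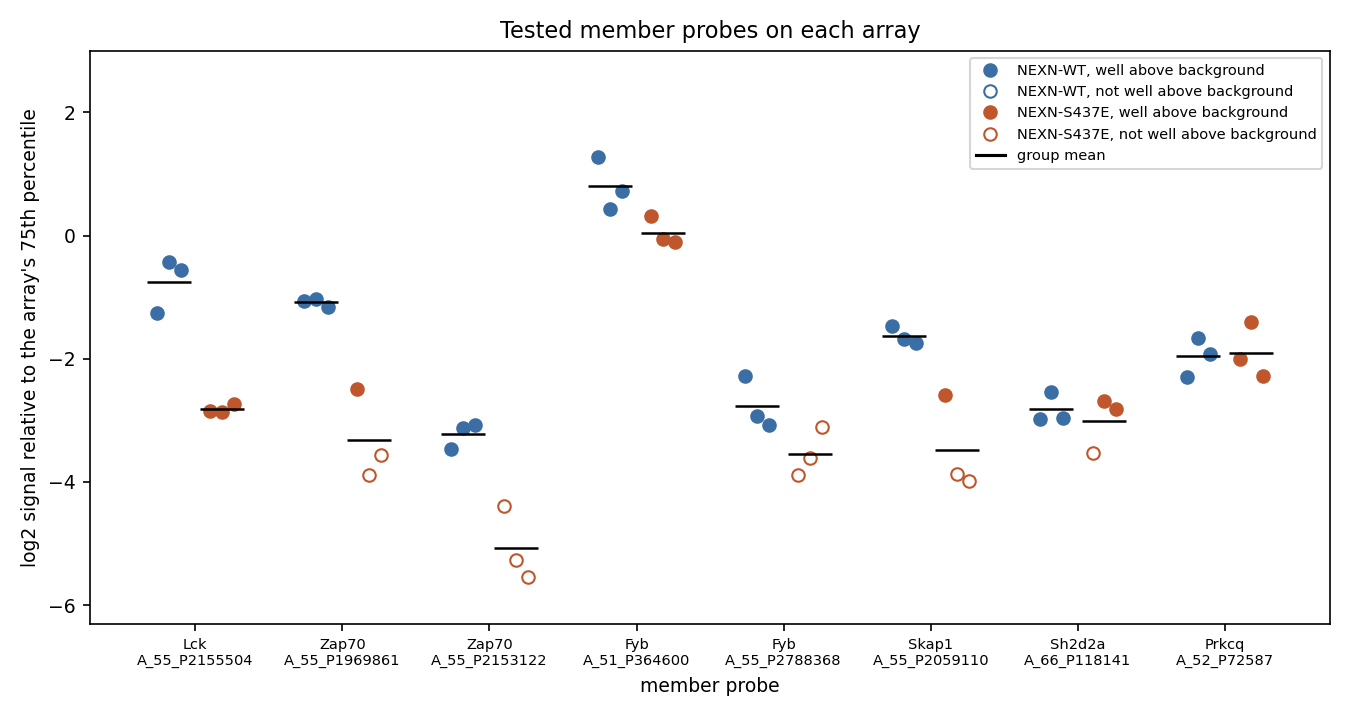
Level of each of the 8 tested probes on each of the 6 arrays, as log2 signal relative to the array's 75th percentile. Blue points are NEXN-WT and orange points NEXN-S437E (n = 3 each), open where the spot was not well above background, and black bars are group means. The *Lck*, *Zap70* and *Skap1* points of the groups do not overlap, while those of *Sh2d2a* and *Prkcq* do.

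*Lck* encodes the Src-family kinase that starts T cell receptor signaling and serves the CD4 and CD8 co-receptors. Its probe A_55_P2155504 (mm9 chr4:129225614-129225673, minus strand) was well above background on all 6 arrays. The level was −1.25, −0.43 and −0.57 on the NEXN-WT arrays. It was −2.85, −2.86 and −2.73 on the NEXN-S437E arrays. Every NEXN-S437E array thus lay below every NEXN-WT array, and the NEXN-S437E arrays lay close together (mean −2.82 ± 0.07, SD, n = 3) while NEXN-WT replicate 1 was the lowest of its group (mean −0.75 ± 0.44, SD, n = 3). The log2 fold change was −2.07 (SE 0.22, 95% interval −2.58 to −1.55), a 4.19-fold lower signal, with an adjusted p of 0.0192 (limma, Benjamini-Hochberg). An exact permutation test over the 6 arrays gave p = 0.1, the smallest that 3 against 3 can give.

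The *Lck* difference kept its size when single arrays were left out, ranging from −2.32 when the first NEXN-WT array was dropped to −1.91 when the second was. Its adjusted p (limma) did not keep its side of 0.05: it was 0.00301 without NEXN-WT replicate 1, but 0.0692 and 0.0543 without NEXN-WT replicates 2 and 3, and 0.0837, 0.0934 and 0.0838 without NEXN-S437E replicates 1, 2 and 3. In the study's own normalized values the mean difference was −2.09, with an adjusted p of 0.0316 in the same limma fit. With normexp, a model-based background correction that adds an offset and compresses dim signals, it was −0.76 with an adjusted p of 0.141.

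The other *Lck* probe, A_55_P2506985 (mm9 chr4:129229196-129229255), was well above background on no array. Its levels ran from −6.19 to −4.92 with NEXN-WT and from −5.74 to −4.91 with NEXN-S437E, so the groups overlapped. The probes start 3582 bases apart on the minus strand, and the detected one lies downstream. Its last 30 bases are shown beside the whole of the undetected probe, because the readings of the gene differ between these places. Capitals mark the AATAAA polyadenylation signal.
Lck A_55_P2155504, last 30 bases: tgcctagcacacaccaggagctcAATAAAa
Lck A_55_P2506985: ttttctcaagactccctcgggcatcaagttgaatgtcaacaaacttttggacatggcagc
The hexamer occurred in 4 of the 25 member probes, of which those of *Lck* and *Skap1* passed the filter and those of *Sh2d1a* and *Prkcq* were above background on no array.

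*Zap70* encodes the kinase that binds phosphorylated receptor tails and is shared by T and NK cells. It had 2 probes, both tested, which start 227 bases apart (mm9 chr1:36839542-36839601 and chr1:36839315-36839374, plus strand). The level of the first, A_55_P1969861, was −1.06, −1.04 and −1.16 with NEXN-WT. With NEXN-S437E it was −2.49, −3.89 and −3.56, and of these only that of replicate 1 was well above background. The groups did not overlap, and the spread within NEXN-WT (SD 0.07) was far smaller than within NEXN-S437E (SD 0.73). On the log2 scale the difference was −2.23 (SE 0.33, 95% interval −2.98 to −1.47), and limma gave an unadjusted p of 0.000139, or 0.0608 after Benjamini-Hochberg adjustment. The probe passed the filter only through NEXN-WT, so a difference was built in, and with the dim arrays set to their lowest signal well above background it was −1.99.

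The second *Zap70* probe, A_55_P2153122, gave the same direction. Its levels were −3.47, −3.13 and −3.07 with NEXN-WT, all well above background. With NEXN-S437E they were −4.40, −5.27 and −5.54, none of them well above background. Only a bound could therefore be given for the fold: at least 1.03-fold lower, taking for each dim array the lowest signal well above background there, with an adjusted p of 0.0748 (limma). On both probes NEXN-S437E replicate 1 was the highest of its group. Without that array the adjusted p (limma) of the probes was 0.011 and 0.031, and without NEXN-WT replicate 1 it was 0.0981 and 0.0836. The sequence of this second probe is shown because it gives the other reading of the same gene.
Zap70 A_55_P2153122: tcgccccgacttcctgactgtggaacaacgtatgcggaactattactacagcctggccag

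*Skap1* encodes the adaptor that is stabilised by ADAP and takes part in integrin activation. Its probe A_55_P2059110 (mm9 chr11:96620198-96620257, plus strand) had levels of −1.47, −1.68 and −1.74 with NEXN-WT. With NEXN-S437E the levels were −2.59, −3.86 and −3.98, and again only replicate 1 was well above background. The groups did not overlap, and the pattern over the 3 NEXN-S437E arrays was that of *Zap70*, with replicate 1 highest. The difference was −1.85 on the log2 scale (SE 0.34, 95% interval −2.64 to −1.05, unadjusted p 0.000689, adjusted p 0.0978 by limma). This probe, too, passed only through NEXN-WT, and with the dim arrays set to their lowest signal well above background the difference was −1.48. Without NEXN-S437E replicate 1 the fitted difference was −2.29 (adjusted p 0.0132), and without NEXN-WT replicate 1 it was −1.77 (adjusted p 0.172). Under normexp it was −0.33 for *Skap1*, −0.70 for *Zap70* A_55_P1969861 and −0.023 for *Zap70* A_55_P2153122, and no member passed the thresholds.

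Position on the slide was not balanced. Slide row 1 held the whole NEXN-WT group together with replicate 1 of NEXN-S437E, and row 2 held the rest. With the row as a block, the difference rests on the single NEXN-S437E array of row 1. It was then −2.11 for *Lck*, −1.41 and −1.18 for *Zap70* A_55_P1969861 and A_55_P2153122, and −0.96 for *Skap1*, which fell short of 2-fold. The adjusted p in that fit (limma) was 0.128, 0.12, 0.237 and 0.255 for these probes. While *Skap1* lost its call, *Fyb* A_55_P2788368 gained one (unadjusted p 0.0185, adjusted p 0.401), so the count of called probes stayed at 4. In the NEXN-S437E arrays of row 2, the slide row and the treatment cannot be told apart.

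**Figure D2:**
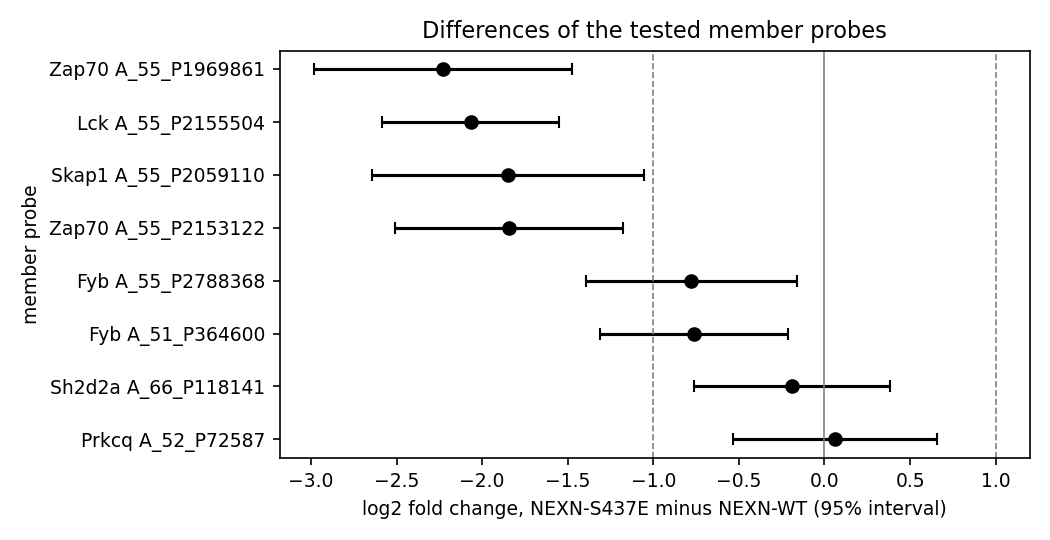
Log2 fold change (NEXN-S437E minus NEXN-WT) of the 8 tested probes with its 95% interval from limma, n = 3 arrays a group. Dashed lines mark a 2-fold change in either direction. The intervals of *Lck*, *Zap70* A_55_P1969861 and *Skap1* lie below −1 (that of *Skap1* ends at −1.05), and those of *Sh2d2a* and *Prkcq* hold 0. *Zap70* A_55_P1969861 and *Skap1* were detected on 1 NEXN-S437E array each. For *Zap70* A_55_P2153122 and *Fyb* A_55_P2788368, above background on no NEXN-S437E array, the plotted value is a fitted one, and the text gives a bound instead.

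*Fyb* encodes ADAP, the adaptor that bridges the LAT complex and SKAP1, and it is also made by myeloid cells and platelets. Its probe A_51_P364600, whose 60 bases are split over 2495 bases of the genome (mm9 chr15:6610710-6613204), was well above background on all 6 arrays. The levels were 1.28, 0.43 and 0.72 with NEXN-WT. They were 0.32, −0.06 and −0.11 with NEXN-S437E, so the groups did not overlap but the gap between 0.43 and 0.32 was small. The signal was 1.7-fold lower, short of 2-fold, with a log2 fold change of −0.76 (SE 0.24, 95% interval −1.31 to −0.21, unadjusted p 0.0128, adjusted p 0.2 by limma). Without NEXN-WT replicate 1 it was −0.53, with an unadjusted p of 0.0265.

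A second tested *Fyb* probe, A_55_P2788368 (mm9 chr15:6530194-6530253), lies upstream of the first and carries the annotation of another transcript variant. Its levels were −2.29, −2.93 and −3.07 with NEXN-WT, all well above background. With NEXN-S437E they were −3.89, −3.62 and −3.12, none well above background, so the signal was at least 1.38-fold lower (adjusted p 0.222 by limma). The unadjusted p was 0.0199, and 0.0596 without NEXN-WT replicate 1. The third *Fyb* probe was above background on no array. Over the 8 tested probes, 6 did not overlap between the groups and were lower with NEXN-S437E, against 9.17% of all tested probes, but 4 of the 6 had passed the filter only through NEXN-WT, which favoured this.

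*Sh2d2a* encodes TSAd, an adaptor that binds LCK, and *Prkcq* encodes PKC-theta, which skeletal muscle also makes. These were the tested members whose groups overlapped. The level of *Sh2d2a* A_66_P118141 was −2.97, −2.54 and −2.96 with NEXN-WT and −3.54, −2.69 and −2.81 with NEXN-S437E. Only NEXN-S437E replicate 1 fell outside the range of the NEXN-WT arrays, and it was the one array on which the probe was not well above background. The difference was −0.19 on the log2 scale (SE 0.25, 95% interval −0.76 to 0.39, adjusted p 0.701 by limma). Without NEXN-WT replicate 1 the difference was −0.27. With the slide row as a block, where it rests on NEXN-S437E replicate 1, it was −0.71 (SE 0.25, unadjusted p 0.0243, adjusted p 0.436).

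The level of *Prkcq* A_52_P72587 was −2.29, −1.67 and −1.92 with NEXN-WT and −2.01, −1.40 and −2.28 with NEXN-S437E, all well above background. The groups spanned nearly the same range. *Prkcq* thus differed by 0.06 on the log2 scale (SE 0.26, 95% interval −0.54 to 0.66, adjusted p 0.914 by limma), and a 2-fold change in either direction lay outside the interval. The sign of this difference changed with single arrays, and it was −0.11 without NEXN-WT replicate 1.

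*Lat*, *Sh2d1a* and *Txk* had no probe well above background on all 3 arrays of a group, and so no test. *Lat*, the membrane scaffold of the pathway, had 1 probe (A_51_P495242, mm9 chr7:133507719-133507778, minus strand). It read −4.06, −4.28 and −3.07 with NEXN-WT and −4.76, −4.78 and −4.70 with NEXN-S437E, and only NEXN-WT replicate 3 was well above background. The NEXN-S437E arrays all lay below the NEXN-WT arrays, but the spot was not well above background on 5 of the 6, and no fold is given. Its sequence is shown as the sole reading of this gene.
Lat A_51_P495242: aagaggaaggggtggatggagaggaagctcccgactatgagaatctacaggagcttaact

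*Sh2d1a* encodes SAP, the adaptor of the SLAM receptors, and had 5 probes. A_55_P1958146 (mm9 chrX:39875116-39875175) read −5.62, −3.21 and −3.06 with NEXN-WT, with replicates 2 and 3 well above background. With NEXN-S437E it read −5.30, −5.72 and −5.49 and was above background on no array. The low value of NEXN-WT replicate 1 kept the probe from being tested. Without that array it passed the filter through the other NEXN-WT arrays only, so that a difference was again built into its passing (adjusted p 0.00603, limma). Of the 10 member probes tested then, 5 were called at the study's thresholds and 2 at the adjusted p. The background without that array was 1.15% of all tested probes lower at the study's thresholds and 0.458% at the adjusted p, more than the 0.13% with it. The other 4 *Sh2d1a* probes were above background on no array, as were both probes of *Txk*, a Tec-family kinase of T cells, whose levels ran from −5.80 to −4.25.

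Of the 17 untested probes, 14 were above background on no array. The remaining 3 were the *Lat* probe, *Sh2d1a* A_55_P1958146 and *Sh2d2a* A_51_P226882, detected in NEXN-WT replicates 2 and 3 alone (levels −3.36 and −3.09). With NEXN-S437E no array detected any of the 17. Among the untested probes 1 did not overlap and was lower, that of *Lat*, and 4 did not overlap and were higher with NEXN-S437E. Over all untested probes of the array the shares were 1.22% lower and 31.7% higher, and nothing is read from the 4. The widest of these 4, *Skap1* A_55_P2791679, read −6.09, −5.71 and −5.66 with NEXN-WT and −4.50, −4.35 and −4.02 with NEXN-S437E, never well above background. On the deposited annotation it carries no RefSeq transcript (mm9 chr11:96443710-96443769), unlike the tested *Skap1* probe. Set against the lowest detected signal of each array, 2 of the 4 overlapped between the groups, the other *Skap1* probe and that of *Sh2d1a*.

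**Figure D3:**
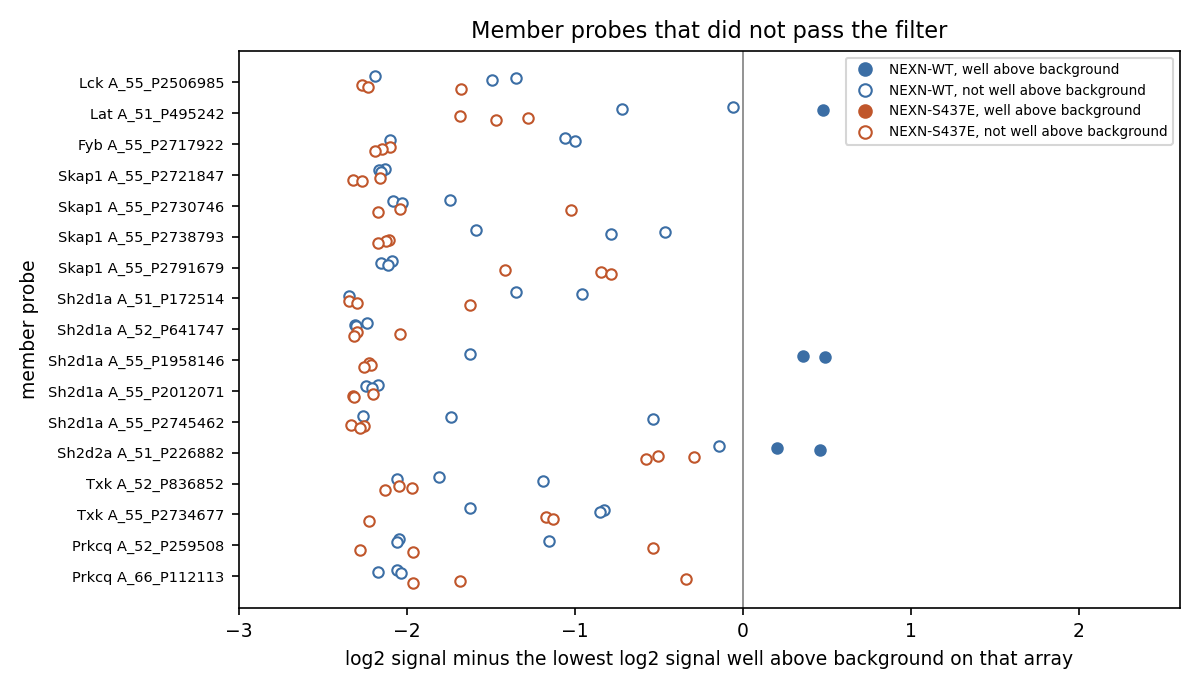
The 17 member probes that did not pass the filter, plotted as log2 signal minus the lowest log2 signal well above background on the same array (grey line at 0). Blue is NEXN-WT, orange NEXN-S437E, and filled points were well above background. The filled points are all NEXN-WT arrays, of *Lat*, *Sh2d1a* and *Sh2d2a*.

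Promoters of the members were read next, because *Lck* and *Zap70* were both lower. The RefSeq table used (GRCm38.p6) held 10 start sites for 6 of the 9 genes, and none for *Skap1*, *Sh2d1a* and *Sh2d2a*. For factors known from lymphocyte genes, 3 short motifs were searched in the 250 bases before each start, on both strands, and they were chosen with the sequences in view. The ETS-type motif AGGAAG was in 7 of the 10 promoters, against 29.5% of all 32851 promoters in the table. The RUNX-type motif TGTGGT was in 3 against 14%, and the E-box CAGGTG in 3 against 17.2%. *Prkcq*, whose difference was near 0, held AGGAAG as well, as did the untested *Lat* and *Txk*. With motifs chosen in view of the sequences, and several starts of the same gene counted, these shares are no test of an excess.

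The 150 bases before both *Lck* starts, the first *Zap70* start and the *Prkcq* start are shown for comparison, 5′ to 3′ on the strand of the gene, with these motifs in capitals. The windows are chr4:129573642-129573791 and chr4:129558373-129558522 on the minus strand, and chr1:36761648-36761797 and chr2:11172232-11172381 on the plus strand (GRCm38.p6).
Lck, upstream start: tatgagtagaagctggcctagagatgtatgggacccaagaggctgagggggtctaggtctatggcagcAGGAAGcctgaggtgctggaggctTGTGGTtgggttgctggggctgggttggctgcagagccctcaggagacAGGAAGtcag
Lck, downstream start: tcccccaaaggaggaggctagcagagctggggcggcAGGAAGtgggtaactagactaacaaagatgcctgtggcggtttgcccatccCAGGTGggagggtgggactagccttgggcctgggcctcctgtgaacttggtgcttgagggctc
Zap70, first start: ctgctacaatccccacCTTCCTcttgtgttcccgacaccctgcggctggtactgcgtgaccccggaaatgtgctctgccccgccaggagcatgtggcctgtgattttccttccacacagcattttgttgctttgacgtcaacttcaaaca
Prkcq: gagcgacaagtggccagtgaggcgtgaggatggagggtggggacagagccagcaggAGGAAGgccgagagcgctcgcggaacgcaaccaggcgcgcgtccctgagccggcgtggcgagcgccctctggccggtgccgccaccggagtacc
The *Lck* windows hold AGGAAG at 2 places and 1 place, and the *Zap70* and *Prkcq* windows at 1 place each, that of *Zap70* on the other strand. A match describes the letters of a window and not a bound site, and binding was not measured.

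Few partners of the members passed the thresholds. Over 5 lists with 80 different genes of the same pathway and its neighbours, 59 genes were tested, 3 were lower at the study's thresholds and none was higher, and at the adjusted p (limma) none was called in either direction, while 11 were lower and 0 higher at an unadjusted p of 0.05. The background among all 13747 tested genes was 2.15% lower and 0.771% higher at the study's thresholds, 0.16% lower at the adjusted p, and 7.91% lower and 10.1% higher at the unadjusted p. *Dok1* was among the 3 and was the one detected on all 6 arrays, while the others passed the filter only through NEXN-WT. Without NEXN-WT replicate 1 the 3 became 2, and *Dok1* was no longer among them. The median log2 fold change over the 59 genes was −0.17, and over all tested genes 0.07.

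*Dok1*, an inhibitory adaptor that myeloid cells also make, read 1.28, 0.00 and −0.45 with NEXN-WT against −1.20, −1.19 and −0.88 (log2 fold change −1.37, adjusted p 0.182 by limma). The groups did not overlap, and NEXN-WT replicate 1 was its highest array. Without that array the log2 fold change was −0.87, short of 2-fold.

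*Ptprc*, the CD45 phosphatase of all leukocytes, read 1.02, 0.01 and 0.52 with NEXN-WT and −0.02, −0.09 and 0.02 with NEXN-S437E, and the groups overlapped (log2 fold change −0.55, adjusted p 0.298 by limma). Of the TCR-proximal list 25 of 36 genes were tested and 3 were lower. Of the integrin partners of ADAP and SKAP1 all 11 were tested and none was called, and the same held for 3 of 9 SLAM genes and for 7 of 10 B cell counterparts, among them *Syk*, the relative of *Zap70*. Among 19 tested close relatives of the members, 1 was called, and it was lower.

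**Figure D4:**
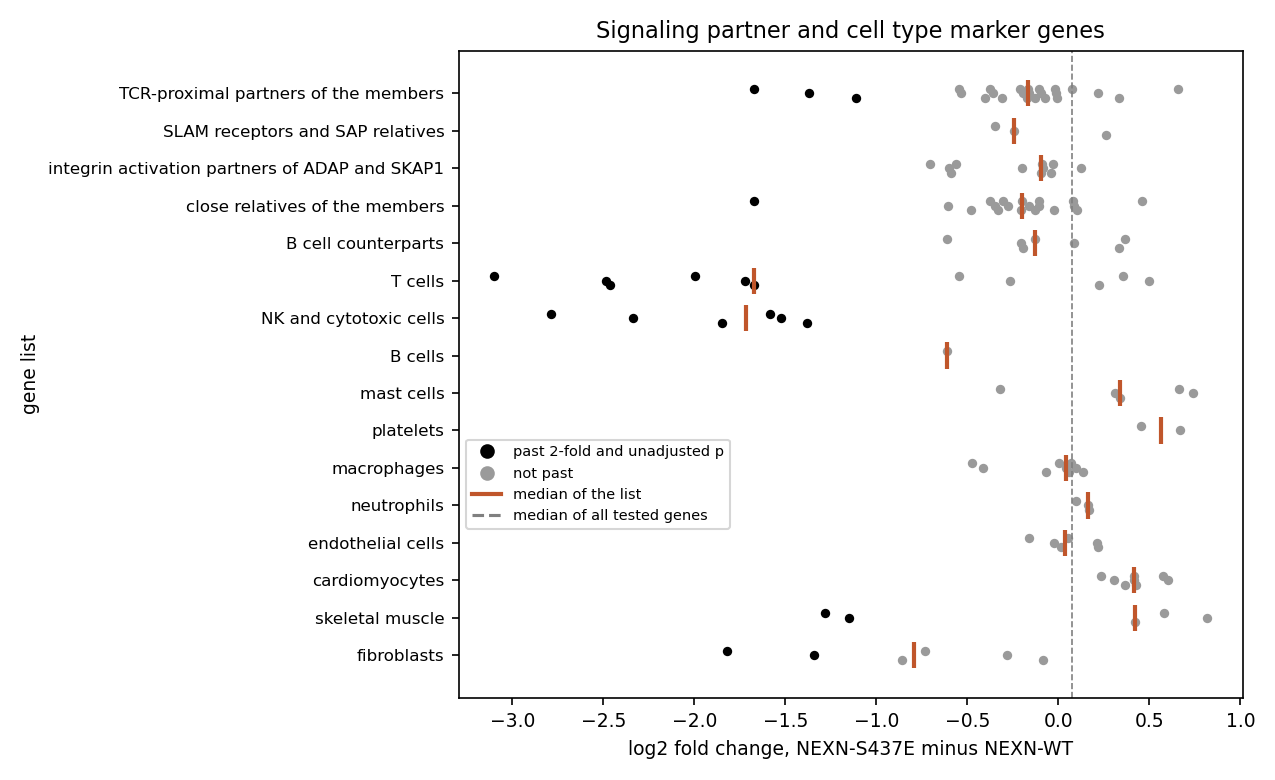
Log2 fold change (NEXN-S437E minus NEXN-WT) of every tested gene in the 5 signaling lists and 11 marker lists, using each gene's probe of highest mean. Black points passed 2-fold with an unadjusted p of 0.05, orange bars are list medians and the dashed line is the median of all tested genes (0.07). The T cell list and the NK and cytotoxic list hold 6 called genes each, all lower. In each list 4 of these passed the filter only through NEXN-WT. The macrophage median lies at 0.04. For genes above background in 1 group only, the plotted value is the fitted one and not a bound.

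Some markers of T and NK cells were lower as well, and others were not. Of 15 T cell markers 11 were tested and 6 were lower, 3 of them at the adjusted p (limma): *Cd3d*, *Cd3g* and *Cd6*. The background over all tested genes was 2.15% lower, and 0.16% at the adjusted p. Of the 6, however, 4 had passed the filter only through NEXN-WT, and among the 7 markers detected on all 6 arrays 2 were lower, *Cd3d* and *Cd2*, against 1.43% of such genes. *Cd3d* read −0.06, 0.17 and 0.42 with NEXN-WT and −1.80, −2.92 and −2.20 with NEXN-S437E. *Cd3g* was at least 2.18-fold and *Cd6* at least 2.93-fold lower, both above background on no NEXN-S437E array. The list was not uniform, for *Cd3e* read −1.07, −0.51 and −0.46 against −0.99, −1.10 and −1.59 (log2 fold change −0.55, adjusted p 0.28, groups overlapping) and *Cd4*, *Cd28* and *Cd247* had positive differences (0.22, 0.50 and 0.36) that did not pass the thresholds. Of the defining genes, *Cd8a*, *Icos* and *Il7r* were not tested and *Bcl11b* was above background on no array. *Cd8b1* was among the 4 lower genes that had passed the filter only through NEXN-WT (log2 fold change −2.46). Its adjusted p (limma) was 0.0821, and 0.0459 without NEXN-WT replicate 1.

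Of 11 NK and cytotoxic markers 6 were tested and all 6 were lower, against 2.15% of all tested genes. However, 4 of these had passed the filter only through NEXN-WT, which built in the difference. The other 2, *Nkg7* and *Gzma*, were detected on all 6 arrays, with *Nkg7*, of cytotoxic granules, past the adjusted p (0.0485, limma), while *Ncr1*, *Klrb1c*, *Klre1* and *Prf1* were above background on no array. The summed linear level of the 6 tested NK and cytotoxic markers was 1.81 to 5.09 with NEXN-WT and 0.765 to 0.961 with NEXN-S437E. It is in units of the 75th percentile. The 4 genes that had passed only through NEXN-WT are part of this sum, so a difference was partly built into it. The corresponding sum for the T cell list was 14.5 to 19.7 and 14.3 to 15.7, and these ranges overlapped. *Thy1* and *Cd247*, neither of them called, accounted for 71% to 85.1% of that sum. Without NEXN-WT replicate 1 both lists again had 6 lower genes, against 1.35% of all tested genes. At the adjusted p (limma) there were 5 and 2, of which 3 and 1 had passed only through NEXN-WT, and the share over all tested genes was 0.586%, above the 0.16% with that array. The part of lymphocyte content in the *Lck*, *Zap70* and *Skap1* differences was not tested, and in RNA from whole tissue fewer lymphocytes and less RNA per lymphocyte cannot be told apart.

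Markers of the other cell types were mostly not called. None of 9 macrophage, 3 neutrophil, 5 mast cell, 2 platelet, 6 endothelial and 1 B cell markers tested passed, and *Ms4a1*, *Pax5* and *Cd79a* of B cells were above background on no array. The macrophage sum was 229 to 293 with NEXN-WT and 267 to 283 with NEXN-S437E. The sums of neutrophil, mast cell, endothelial and skeletal muscle lists overlapped between the groups as well. Those of cardiomyocytes (2040 to 2690 against 3180 to 3310) and platelets (20.1 to 29.9 against 32 to 33.8) did not, and were higher with NEXN-S437E. *Cd79b*, the sole tested B cell marker, was lower without overlap (0.344 to 0.509 against 0.272 to 0.313). The 8 cardiomyocyte markers all had positive differences (median log2 fold change 0.42) and none was called. The 5 tested genes of the skeletal muscle list went both ways (median log2 fold change 0.42), with 3 positive differences that were not called. The 2 lower genes were *Acta1* (log2 fold change −1.28, adjusted p 0.146 by limma) and *Tnnt3*. *Tnnt3* was at least 1.64-fold lower, passed only through NEXN-WT and was not called without NEXN-WT replicate 1. *Acta1* read 5.65, 7.01 and 6.57 with NEXN-WT and 5.36, 4.98 and 5.04 with NEXN-S437E. *Myh1* and *Actn3* were above background on no array, so the *Acta1* difference is not read as one of skeletal muscle. The 6 fibroblast markers all had negative differences (median log2 fold change −0.79) and 2 were called, *Col1a1* (−1.82) and *Col3a1* (−1.34), each with an adjusted p of 0.0815, and their list's sum was 507 to 713 against 405 to 434. Without NEXN-WT replicate 1 the adjusted p was 0.0298 for *Acta1*, 0.0206 for *Col1a1* and 0.0261 for *Col3a1* (limma). Their part in the differences of the members was not tested either.

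The genes whose levels ran most like those of a member over the 6 arrays were found among 18905 or 18906 probes of other genes well above background on all arrays. They describe 6 points that include the group difference, so no p is given. For *Lck* they were *Ap3d1*, *Ccl5* and *Inmt* (Pearson r 0.992 to 0.996), with 40 probes above 0.95. *Ccl5* is a chemokine that T and NK cells make. For *Zap70* they included *Pigs* and *Dusp2* (118 probes above 0.95), and for *Skap1* *Itga4*, *Mbtps1* and *Dact1* (121). *Dusp2* is a phosphatase of activated lymphocytes, and *Itga4* an integrin chain that lymphocytes carry. For *Fyb* they were *Ppm1d*, *Rtn4* and *Txndc16* (251), for *Sh2d2a* *Fam149b*, *Btbd10* and *Dusp3* (29), and for *Prkcq* *Stk11ip*, *Tenm4* and *Gatc* (3). The likeness to *Zap70* and *Skap1* rests partly on NEXN-S437E replicates 2 and 3, where their probes were not well above background. For *Sh2d2a* the same holds of NEXN-S437E replicate 1. These *Zap70*, *Skap1* and *Sh2d2a* probes had also passed the filter only through NEXN-WT.

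**Figure D5:**
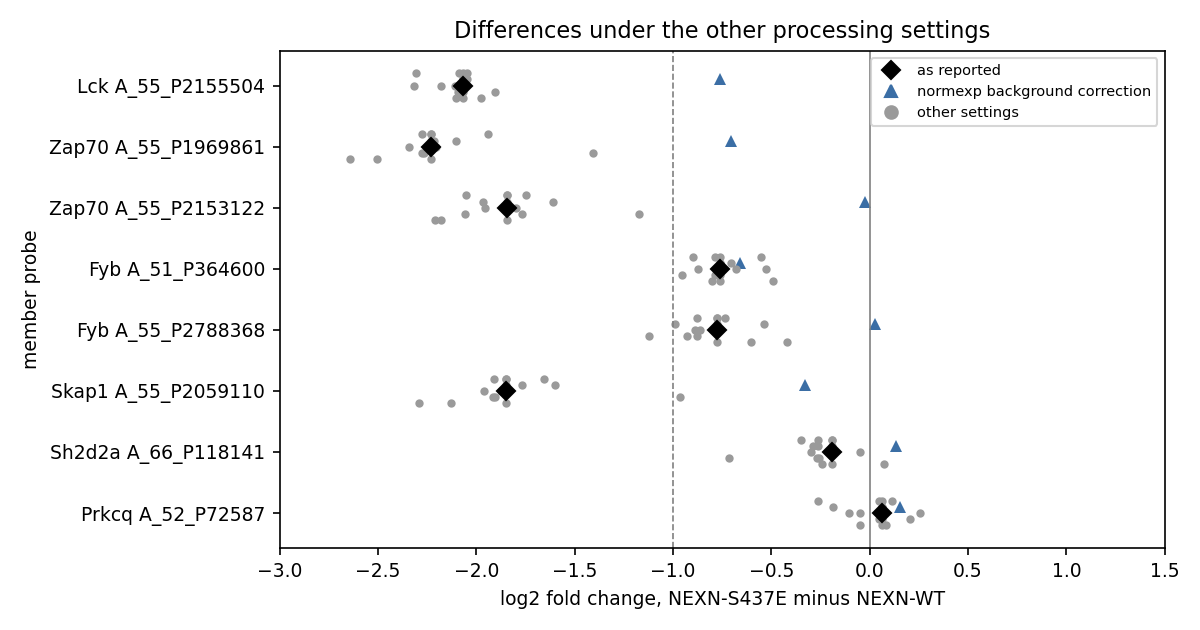
Log2 fold change of the 8 tested probes as reported (black diamonds), under normexp background correction (blue triangles) and under the other processing settings and left-out arrays (grey points). The dashed line marks a 2-fold decrease. Under normexp no probe stays beyond it, and *Lck* moves from −2.07 to −0.76.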

How the data were processed

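RNA from 6 hearts was measured on 6 arrays of 1 slide, read in 1 scan. Per the file headers, the authors used Agilent Feature Extraction 10.7.1.1, and the deposited intensity of a spot is background-subtracted and detrended within its array only. A deposited series table adds log2 values whose sorted values are the same in all 6 columns. How these were normalized is not given in the sources used here. Probe sequences and mm9 coordinates came from the same files, and without a genome of that build no probe was placed in an exon or UTR.

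From each array's processed signal, control and outlier spots were left out, spots of a probe were averaged, and the log2 of the 75th percentile over all probes was subtracted. Under 50% of the spots were well above background, and the percentile taken over detected probes was tried as well. Groups, taken from the sample titles, were compared with limma 3.58.1 (lmFit, eBayes) in R 4.3.3, with the data.table package (version 1.17.8) as reader. The fit covered the 22998 probes that all 3 arrays of a group detected, with Benjamini-Hochberg adjustment over all of them. With intensities, the number of arrays limits the precision. Where a group had no array above background, the fold is a bound. For gene lists, each gene's probe of highest mean was used. On simulated data for 22987 probes, 197 of 200 probes changed 4-fold (2 on the log2 scale) were recovered at the study's thresholds. Sequences and figures used Python 3.11.15, pandas 2.3.3, numpy 2.4.6 and matplotlib 3.10.9.

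Alternatives were quantile normalization, normexp (offset 50), the study's own values, other filters, outlier spots kept, the methods' t-test, blocks for replicate number and slide row, an intensity trend, array weights, a 1.5-fold threshold, 1 probe per gene and each array left out. The members, lists and alternatives were chosen with earlier results of these data known. Named beside the 9 members are, from each list, the genes past the adjusted p or else the study's thresholds, at most 4 of smallest p in each direction, *Cd3e* and *Ptprc*, and the 3 genes most like each tested member. Other genes, such as *Cd2*, *Cd8b1*, *Gzma*, *Thy1*, *Cd4*, *Cd28*, *Cd247* and *Syk*, were named after their values were seen. Some genes that the rule names are not reported here.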

Additional observations from a re-analysis of the deposited data

How the results depend on the processing

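The 4 member probes past the study's thresholds numbered 0 under normexp background correction, 7 with no filter on dim probes (5 lower and 2 higher, the latter *Skap1* A_55_P2791679 and *Prkcq* A_66_P112113, below background on every array) and 1 among probes above background on all 6 arrays, where 3 member probes were tested. They numbered 4 or 5 with each array left out, the 5 being out of 10 tested without NEXN-WT replicate 1. The 1 member probe past the adjusted p became 0 under normexp, with no filter, with the methods' t-test and with the slide row as a block, 2 with an intensity trend and 5 with array weights, and 0 to 3 with each array left out. The 3 partner genes became 0 under normexp and with the methods' t-test, 6 with no filter, 1 with the filter on all 6 arrays, and 2 to 5 with each array left out. Of 139 differences recomputed for the tested members, 125 kept their direction and their side of the study's thresholds, 5 lost that call and 1 gained it. The adjusted p changed its side of 0.05 in 17, of which 16 were among the 125.

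Direction reversed in the other 8, all in probes that were not called. *Fyb* A_55_P2788368 was 0.026 under normexp. *Sh2d2a* A_66_P118141 was 0.14 under normexp and ranged from −0.35 to 0.073 with each array left out, positive without NEXN-S437E replicate 1. *Prkcq* A_52_P72587 was −0.050 with the percentile over detected probes, −0.048 with the slide row as a block and −0.27 with array weights, and ranged from −0.19 to 0.25 with each array left out, negative without NEXN-WT replicate 1 and without NEXN-S437E replicate 2. Over the whole array, 410 probes were lower and 169 higher at the study's thresholds, 155 and 25 under normexp, and 624 and 1646 with no filter, and 3820 rather than 37 passed the adjusted p with array weights. The lack of a filter moved the median log2 fold change of all probes from 0.09 to 0.28. The cause of these changes was not tested, except that filters change how many probes are tested.

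The replicate numbers were checked as pairs: deviations from the group means of same-numbered arrays correlated at −0.158, −0.024 and −0.205. For differently numbered arrays the range was −0.08 to 0.211. The labels gave no link beyond the number, and so few arrays cannot settle whether there was one. With the replicate block the counts stayed at 4, 1 and 3, and *Lck* had an adjusted p of 0.0475 (limma). Signal over background limited what could be read, and 14 of the 25 member probes were above background on no array.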
